A study of Danio rerio with 15 samples.

Results

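The comparison described here sets whole zebrafish larvae (Danio rerio) exposed to sertraline at 25 µg/L against larvae exposed to fluoxetine at 25 µg/L. Its members are the 3 arrays labelled with sertraline 25 and the 3 labelled with fluoxetine 25, which are 6 of the 15 arrays of the series, and all 15502 probe sets other than the Affymetrix control probe sets were used. The contrast was chosen by its labels and not by measured values, and no control array enters the difference. The other arrays come from larvae in 250 µg/L sertraline, larvae in 250 µg/L fluoxetine and control larvae in water without drug, with 3 arrays in each of the 5 groups. Larvae were 72 h past fertilisation when exposure began and stayed for 96 h in 200 ml of water, unfed and living on their yolk. Each array carries pooled RNA from 1 beaker of about 100 larvae, so a beaker is the replicate and p-values measure the spread between beakers. The fish came from unexposed parents, and the labels name no strain, no genotype and no clock time of sampling. Both drugs were dosed by mass and not by molar amount, and the amounts reached in the larvae are not given in the sources used here.

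Sertraline and fluoxetine are selective serotonin reuptake inhibitors, antidepressants that block the transporter which returns serotonin to the neuron that released it. Both are secondary amines with an N-methyl group. In sertraline the amine sits on a fused tetrahydronaphthalene ring that carries a dichlorophenyl group, whereas in fluoxetine it ends an open propyl chain that carries a phenyl and a trifluoromethylphenoxy group. The circadian clock is a loop in which bmal and clock proteins activate genes of period and cryptochrome repressors, and in zebrafish light acts on it directly in most tissues. The glucocorticoid receptor (nr3c1) binds cortisol and induces fkbp5, whose protein is a co-chaperone that damps the receptor. Heat shock proteins fold or hold other proteins and rise under stress.

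The array medians of the log2 signal lay between 4.57 and 4.65 in all 15 arrays. The arrays of fluoxetine 25 scattered more than the others. Their median standard deviation (SD) was 0.136 on the log2 scale, against 0.0892 for sertraline 25, and each correlated with the other arrays of its group at a mean r of 0.9861 to 0.9891, against 0.9963 to 0.9967 for sertraline 25. The GAPDH 3′ minus 5′ difference, a measure of RNA integrity, was 2.12, 2.17 and 1.95 in sertraline 25 and 1.53, 1.99 and 2.36 in fluoxetine 25. Its means differed by 0.12 (exact two-sided permutation test, p = 0.8, where 3 against 3 arrays cannot go below 0.1). The same difference for acta1 ran from 7.09 to 7.71 in sertraline 25 and more widely, from 6.83 to 8.95, in fluoxetine 25, with means of 7.44 and 8.11 (exact two-sided permutation test, p = 0.4). Across all probe sets the median difference between the drugs was -0.07, and it was -0.12 among the 40% of probe sets with the lowest signal, of which 52.6% had all 3 sertraline arrays below all 3 fluoxetine arrays. Among the other probe sets the median was 0.002, with 10.8% separated above and 12.9% below. Signals of digestive organs differed between the fluoxetine 25 arrays and are described with those organs. In whole larvae fewer cells of a type and less RNA per cell cannot be told apart.

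At 25 µg/L the drugs differed in 325 probe sets, 2.1% of those tested, at a limma p-value adjusted by Benjamini-Hochberg below 0.05. Sertraline larvae were higher in 160 (1.03%) and lower in 165 (1.06%). The difference reached 2-fold in 57 probe sets, 40 higher and 17 lower. Among probe sets that passed and have 1 gene symbol the largest rises were fkbp5, a short-chain dehydrogenase gene (dhrs13a.2) and the clock repressors bhlhe41, cry2, per2 and ciarta. The largest falls among them were serpinh1b, the collagen chaperone, igfbp1b, a binding protein of insulin-like growth factors, and rorcb, a nuclear receptor of the clock. In all 325 the arrays of the drugs did not overlap, a separation also found in 35.7% of all probe sets (6.86% above and 28.8% below). An unadjusted limma p under 0.05 was reached by 4344 of all 15502 probe sets. That share is the background for the unadjusted counts of the gene lists. The calls with 1 gene symbol covered 125 genes that were higher and 103 that were lower. Without sertraline 25 replicate 1, 2 or 3 the count was 104, 134 and 137, and without fluoxetine 25 replicate 1, 2 or 3 it was 820, 183 and 1007. The split into higher and lower was 65 and 39, 84 and 50, and 72 and 65 without the sertraline arrays. It was 215 and 605, 95 and 88, and 502 and 505 without the fluoxetine arrays. These totals, out of 15502 probe sets, are the background for the gene-list counts of the same fits. In every one of these 6 fits 89 probe sets passed, 58 higher and 31 lower. A fit of the 6 arrays alone called 54 (35 higher and 19 lower), and 33 of the called probe sets chosen to be named, which also number 89, passed in it. That fit has fewer degrees of freedom and takes its spread from these 2 groups only. The main fit pools the spread over 5 groups, of which fluoxetine 25 had the largest median SD (0.136, against 0.0892 to 0.106). What lowered the count was not tested. Median centring moved the split to 196 higher and 102 lower, and a test without the probe sets of lowest signal to 195 and 134. A trended and robust prior gave 197 higher and 312 lower.

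**Figure D1:**
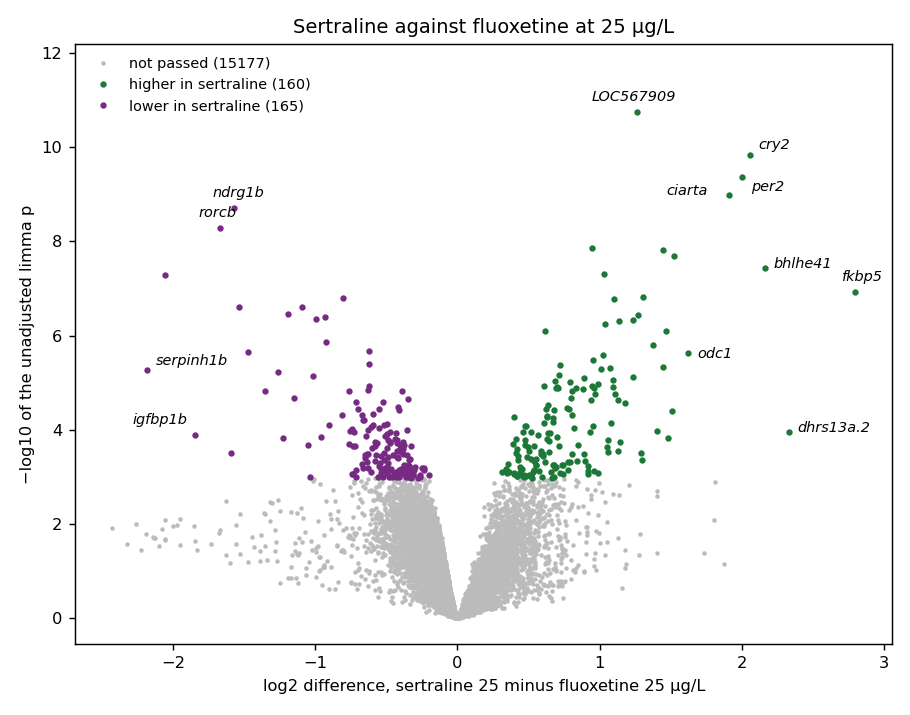
Each point is 1 of 15502 probe sets, with the log2 difference of sertraline 25 minus fluoxetine 25 µg/L on the horizontal axis and −log10 of the unadjusted limma p on the vertical axis. Green points (160) passed as higher in sertraline and purple points (165) as lower. The clock genes cry2, per2, ciarta and bhlhe41 stand at the upper right, and ndrg1b and rorcb at the upper left.

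Set beside control larvae, most of the genes that differed had a sertraline mean near the control mean. Among the 160 higher probe sets the median distance from control was 0.17 on the log2 scale in sertraline 25 and 0.76 in fluoxetine 25, and the sertraline mean was the nearer in 150. Among the 165 lower probe sets these distances were 0.10 and 0.40, and sertraline was the nearer in 156. Over all probe sets they were 0.07 and 0.12, with sertraline nearer in 71.1%. These distances share the control arrays, and each shares its drug arrays with the contrast that chose the probe sets, so they are given as a description. The fluoxetine 25 arrays also had the larger median SD (0.136, against 0.0892 for sertraline 25), and its part in the distances was not tested. In the test against control itself, sertraline 25 passed in 10 probe sets (0.0645%), 1 higher (0.00645%) and 9 lower (0.0581%). Fluoxetine 25 passed in 392 (2.53%), 134 higher (0.864%) and 258 lower (1.66%). Of the 160 higher probe sets 2 also passed between sertraline 25 and control and 124 between fluoxetine 25 and control, and of the 165 lower probe sets 0 and 81 did.

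The gene with the largest rise was fkbp5. It had 8.40, 7.61 and 8.14 log2 units in sertraline 25 and 5.37, 4.82 and 5.56 in fluoxetine 25, against 10.27, 10.18 and 10.28 in control. All 3 sertraline arrays lay above all 3 fluoxetine arrays and below all 3 control arrays. The difference was 2.80 ± 0.26 (log2, SE; 6.95-fold, adjusted p = 0.000141), and it passed in each fit without 1 of the 6 arrays. Both drugs lay below control, by -2.19 for sertraline 25 (adjusted p = 0.0107) and -4.99 for fluoxetine 25 (adjusted p = 1.05e-06). The 25 measured genes on a list of glucocorticoid-responsive genes had a median difference of 0.17, beside -0.07 over all probe sets. Of these genes 3 rose and none fell, beside 1.03% and 1.06% of all probe sets. Besides fkbp5 these were nfkbiab, which encodes an inhibitor of NF-kappaB, and cry2, which is also a clock gene. The nfkbiab signal was 8.36, 8.01 and 8.16 in sertraline 25 and 7.44, 7.55 and 7.16 in fluoxetine 25, with a difference of 0.79 ± 0.11 (adjusted p = 0.00311; 0.108 in the fit of the 6 arrays alone). Other receptor targets did not pass between the drugs: klf9, a zinc-finger factor, differed by 0.45 (adjusted p = 0.101) and sgk1, a kinase, by 0.75 (adjusted p = 0.0504). The receptor gene nr3c1 had 8.67, 8.81 and 8.86 in sertraline 25 and 9.01, 9.20 and 9.15 in fluoxetine 25 at its brightest probe set, a difference of -0.34 that did not pass (adjusted p = 0.0777).

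**Figure D2:**
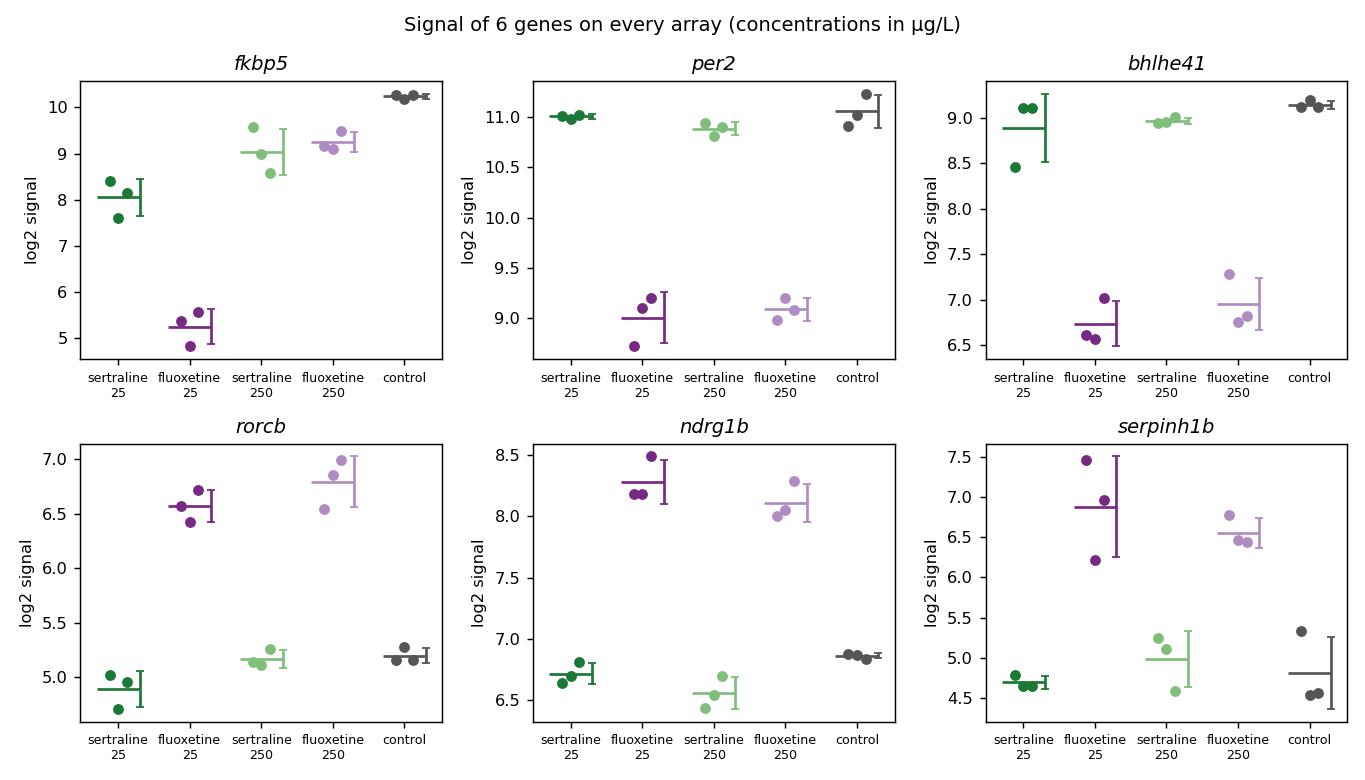
Log2 signal of fkbp5, per2, bhlhe41, rorcb, ndrg1b and serpinh1b on every array, with a point per array, a line at the group mean and a bracket of 1 SD to either side. Concentrations are in µg/L. The sertraline 25 and fluoxetine 25 points do not overlap in any of the 6 panels, and only for fkbp5 do the points of the drugs at 250 µg/L overlap.

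Of the 31 measured genes of the circadian clock, 7 were higher and 2 were lower in sertraline 25, beside 1.03% and 1.06% of all probe sets. The median over the list was 0.05. All 3 sertraline arrays lay above all 3 fluoxetine arrays in 10 of the 31 and below them in 10, beside 6.86% and 28.8% of all probe sets. Outside the 40% of probe sets with the lowest signal, to which 11 of the 31 belong, these shares were 10.8% and 12.9%. The repressor per2, which light induces in zebrafish, had 11.01, 10.98 and 11.02 in sertraline 25 and 8.72, 9.10 and 9.20 in fluoxetine 25, against 10.91, 11.02 and 11.23 in control. The sertraline arrays lay within the control range and the fluoxetine arrays about 2 log2 units below both. The difference between the drugs was 2.00 ± 0.11 (4.0-fold, adjusted p = 2.18e-06), while a dimmer probe set of per2 differed by 1.81 and did not pass (adjusted p = 0.0538). The cryptochrome cry2, a repressor of the clock, had 8.30, 8.48 and 8.27 in sertraline 25 and 6.28, 6.39 and 6.22 in fluoxetine 25. Its difference was 2.05 ± 0.11 (adjusted p = 1.13e-06), and its other probe set gave 1.27 ± 0.13 (adjusted p = 0.000285). The related cry1b had 7.17, 7.05 and 6.78 in sertraline 25 and 6.09, 5.65 and 5.85 in fluoxetine 25, a difference of 1.14 (adjusted p = 0.00032). At their called probe sets these repressors had no overlap between arrays, and cry1b did not pass in the fit of the 6 arrays alone (adjusted p = 0.0592).

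The same direction held for further repressors of transcription in the clock. The basic helix-loop-helix repressor bhlhe41 had 8.46, 9.11 and 9.11 in sertraline 25 and 6.61, 6.57 and 7.02 in fluoxetine 25, a difference of 2.16 ± 0.18 (adjusted p = 5.59e-05). The clock repressor ciarta had 9.90, 10.02 and 9.94 in sertraline 25 and 8.04, 7.95 and 8.13 in fluoxetine 25, a difference of 1.91 ± 0.12 (adjusted p = 4.09e-06). Both genes lay more than 1 log2 unit apart between the drugs on every array. The bZIP factor nfil3-6 was higher by 1.02 (adjusted p = 0.00123, and 0.0597 in the fit of the 6 arrays alone) at the brighter of its 2 probe sets. Its other probe set had a difference near 0 that did not pass. The Rev-erb receptor nr1d2b was higher by 0.54 (adjusted p = 0.0217). The call of nr1d2b ended without sertraline 25 replicate 1, 2 or 3 (adjusted p = 0.0579, 0.0806 and 0.0662) and without fluoxetine 25 replicate 2 (0.0757).

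The 2 clock genes that were lower in sertraline larvae were rorcb and nfil3-5. The receptor gene rorcb, whose family activates bmal genes, had 5.02, 4.71 and 4.96 in sertraline 25 and 6.57, 6.42 and 6.72 in fluoxetine 25, against 5.16, 5.28 and 5.16 in control. Its sertraline arrays all lay below the control arrays by less than 1 log2 unit, and its fluoxetine arrays all lay above them. The difference was -1.67 ± 0.12 (adjusted p = 1.36e-05). The signal of nfil3-5, of the same gene family as nfil3-6, was 8.17, 8.20 and 7.97 in sertraline 25 and 8.53, 8.85 and 8.98 in fluoxetine 25. Its difference was -0.67 (adjusted p = 0.0086, and 0.148 in the fit of the 6 arrays alone). The activator bmal1a had 4.59, 4.24 and 4.24 in sertraline 25 and 4.53, 5.03 and 5.06 in fluoxetine 25, with overlap between the drugs and a difference of -0.52 that did not pass (adjusted p = 0.1). The mean of the list was 6.10, 6.11 and 6.08 in sertraline 25, 5.71, 5.73 and 5.87 in fluoxetine 25 and 6.13, 6.16 and 6.19 in control, so that all sertraline arrays lay between fluoxetine and control.

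In the list of phototransduction and lens genes, 3 of 39 measured genes rose and 5 fell (20.5% called, beside 2.1% of all probe sets). The genes that rose belong to photoreceptors or to retinoid transport. The cone phosphodiesterase subunit pde6c had 12.06, 12.15 and 12.13 in sertraline 25 and 11.20, 11.42 and 11.64 in fluoxetine 25, a difference of 0.70 ± 0.10 (adjusted p = 0.00345). The guanylate cyclase activator guca1c had 7.50, 7.50 and 7.63 in sertraline 25 and 6.64, 6.51 and 6.61 in fluoxetine 25, a difference of 0.95 (adjusted p = 0.0015). The retinol-binding protein gene rbp4l was higher by 0.68 (adjusted p = 0.0071). No array overlapped between the drugs for these 3 genes, and each passed in all fits without 1 of the 6 arrays. In the fit of the 6 arrays alone pde6c (adjusted p = 0.106) and rbp4l (0.133) did not pass. The 5 that fell were the transducin subunits gnb3b, gngt1, gngt2a and gngt2b and the lens filament gene bfsp2, by 0.38 to 0.65 on the log2 scale in size. The number of lower genes was 1, 0 and 3 without sertraline 25 replicate 1, 2 and 3, and 8, 2 and 4 without fluoxetine 25 replicate 1, 2 and 3. The neuronal factor neurod1, also found in photoreceptors, fell. It had 8.92, 8.91 and 8.89 in sertraline 25 and 9.60, 9.50 and 9.49 in fluoxetine 25, a difference of -0.62 ± 0.08 (adjusted p = 0.0011). It is the only called member of 53 neuronal and synaptic genes and runs against most of that list. There 41 differences lay above 0 and the median was 0.23. At an unadjusted limma p under 0.05, 14 were higher and 3 lower, together near the share of all probe sets in either direction (4344 of 15502). All 3 sertraline arrays lay above all 3 fluoxetine arrays in 10 of the 53 genes and below them in 4. Over all probe sets these separations were found in 6.86% and 28.8%, and outside the 40% with the lowest signal in 10.8% and 12.9%. Only 7 of the 53 genes belong to that 40%. The list means were 7.84, 7.94 and 7.81 in sertraline 25 and 7.60, 7.53 and 7.88 in fluoxetine 25, where replicate 3 lay within the sertraline range. Without fluoxetine 25 replicate 3, 11 of these genes passed as higher, beside 502 of all 15502 probe sets in that fit. Without any 1 of the other arrays 0 of them did.

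Single genes with roles in polyamine, folate or mitochondrial metabolism, taken from several lists or named after their values were seen, were higher in sertraline larvae. The enzyme odc1, which makes the first polyamine, putrescine, had 4.49, 4.21 and 4.21 in sertraline 25 and 2.36, 2.53 and 3.15 in fluoxetine 25, a difference of 1.62 ± 0.20 (adjusted p = 0.00111). The antizyme gene oaz2b, whose protein targets that enzyme for degradation, rose as well, by 1.11 (adjusted p = 0.00408) at one probe set, and its other probe set gave 0.99 (adjusted p = 0.0548). The mitochondrial folate enzyme mthfd2 had 5.5, 5.33 and 5.35 in sertraline 25 and 3.58, 4.12 and 4.12 in fluoxetine 25, a difference of 1.45 ± 0.19 (adjusted p = 0.00195). The arrays of the drugs did not overlap for any of these called probe sets, but in the fit of the 6 arrays alone odc1 (adjusted p = 0.0597) and oaz2b (0.0513) did not pass. The mitochondrial inner-membrane protein higd1a had 6.02, 6.14 and 6.10 in sertraline 25 and 4.50, 4.77 and 4.66 in fluoxetine 25, a difference of 1.44 ± 0.11 (adjusted p = 2.90e-05); its dimmer probe set gave 1.09 (adjusted p = 0.0681). The coactivator ppargc1b, which drives mitochondrial genes, had 8.77, 8.83 and 8.49 in sertraline 25 and 7.53, 7.60 and 7.69 in fluoxetine 25, a difference of 1.09 (adjusted p = 0.00288). Its second, dimmer probe set gave 1.48 (adjusted p = 0.0176, with 0.0951 the highest when 1 array was left out). The lipid enzyme hsd17b12a rose by 1.3 (adjusted p = 0.000164), coq10b, which binds coenzyme Q, by 1.09 (adjusted p = 0.00345) and the mitochondrial chaperone hspd1 by 0.89 (adjusted p = 0.00274). No gene of 67 for oxidative phosphorylation passed, with 2 higher and 12 lower at an unadjusted limma p under 0.05 and a list median of -0.10.

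The chaperone list held changes in both directions and had a median of 0.02. Of its 41 measured genes 5 were higher and 3 lower (19.5% called, beside 2.1% of all probe sets). The collagen chaperone serpinh1b had 4.79, 4.65 and 4.65 in sertraline 25 and 7.46, 6.22 and 6.96 in fluoxetine 25, against 5.33, 4.54 and 4.57 in control. Its sertraline arrays lay within the control range, and its fluoxetine arrays lay above all of them. The difference was -2.18 ± 0.29 (4.54-fold, adjusted p = 0.00212; 0.0614 in the fit of the 6 arrays alone). The Hsp40 co-chaperone dnajb1b had 4.97, 4.65 and 4.57 in sertraline 25 and 6.50, 6.32 and 5.97 in fluoxetine 25, a difference of -1.53 ± 0.15 (adjusted p = 0.000208). In the opposite direction, the small heat shock protein hspb6 had 5.66, 5.62 and 5.68 in sertraline 25 and 4.44, 4.26 and 3.86 in fluoxetine 25, a difference of 1.47 ± 0.16 (adjusted p = 0.000461). In all 3 genes the drugs were separate on every array. The heat shock transcription factor hsf2 was higher by 0.95 (adjusted p = 0.0123; 0.0566 without sertraline 25 replicate 2). The remaining higher members were hspd1, given above with the mitochondrial genes, hspa4b and hspa4l, and the remaining lower member was hsp70.3. The call of hspa4b ended without sertraline 25 replicate 1 or 3 (adjusted p = 0.0709 and 0.0658). Those of hspa4l and hsp70.3 ended without any 1 of the sertraline 25 arrays or fluoxetine 25 replicate 2 (up to 0.125).

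The muscle genes that were lower in sertraline larvae encode parts of the ubiquitin system. The list of skeletal and cardiac muscle had a median of -0.08, close to that of all probe sets. Of its 62 measured genes 3 fell (4.84%, beside 1.06% of all probe sets) and none rose. All 3 are E3 ubiquitin ligases or ligase components that mark muscle proteins for breakdown. The ligase trim55b had 7.57, 7.41 and 7.51 in sertraline 25 and 8.63, 8.45 and 8.68 in fluoxetine 25, a difference of -1.09 ± 0.11 (adjusted p = 0.000208). The F-box protein fbxo32, also called atrogin, had 9.05, 8.98 and 9.12 in sertraline 25 and 9.99, 9.87 and 10.07 in fluoxetine 25, a difference of -0.93 ± 0.11 (adjusted p = 0.000764). For both genes no sertraline array reached the lowest fluoxetine array. The third, trim63a, fell by 1.05 (adjusted p = 0.0216), and its call ended without sertraline 25 replicate 1, 2 or 3 (adjusted p = 0.105, 0.0667 and 0.0645). A ubiquitin gene, ubb, had 10.53, 10.15 and 10.33 in sertraline 25 and 11.34, 11.35 and 11.31 in fluoxetine 25, a difference of -1.0 (adjusted p = 0.000305), while its other probe set gave -0.97 (adjusted p = 0.0575). Ubiquitin genes share sequence, so probe sets may read more than 1 of them. None of 48 proteasome genes passed, with 2 higher and 8 lower at an unadjusted limma p under 0.05.

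Further lower genes belong to the lists of hypoxia, energy sensing, glucose and xenobiotic metabolism or to none. The stress-responsive ndrg1b had 6.64, 6.70 and 6.81 in sertraline 25 and 8.18, 8.18 and 8.49 in fluoxetine 25, a difference of -1.57 ± 0.10 (adjusted p = 5.93e-06). Its paralogue ndrg1a had 7.14, 7.24 and 7.33 in sertraline 25 and 8.11, 7.98 and 8.04 in fluoxetine 25, a difference of -0.80 ± 0.08 (adjusted p = 0.000164). Both had sertraline arrays below every fluoxetine array. The AMP deaminase ampd3b fell by 1.26 (adjusted p = 0.00222; 0.0637 in the fit of the 6 arrays alone) and the vascular matrix gene mmrn2a by 1.47 (adjusted p = 0.00111; 0.0664 in that fit). The growth-factor binding protein igfbp1b had 7.50, 7.19 and 7.71 in sertraline 25 and 9.90, 9.63 and 8.41 in fluoxetine 25, a difference of -1.84 ± 0.34 (adjusted p = 0.0161). Its call ended without sertraline 25 replicate 1 or 2 (adjusted p = 0.0699 and 0.0685) and without fluoxetine 25 replicate 2 (0.0638). The cytochrome cyp24a1, which inactivates vitamin D, fell by 1.59 (adjusted p = 0.0275) and did not pass without sertraline 25 replicate 1, 2 or 3 (0.0813, 0.0947 and 0.0654) or without fluoxetine 25 replicate 2 (0.0894).

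Immediate early genes, which neurons and other cells switch on within minutes of a stimulus, had the highest median of the 31 lists, but few of them passed. The list median was 0.72 beside -0.07 over all probe sets. Of 26 measured genes, 5 were called higher (19.2%, beside 1.03% of all probe sets) and 0 lower. At an unadjusted limma p under 0.05, 17 were higher and 0 lower, beside 4344 of all 15502 probe sets in either direction. All 3 sertraline arrays lay above all 3 fluoxetine arrays in 15 of the 26 genes, a separation found in 6.86% of all probe sets. The phosphatase dusp5, which switches off ERK, had 5.78, 5.53 and 5.53 in sertraline 25 and 4.60, 4.87 and 5.02 in fluoxetine 25, a difference of 0.78 ± 0.13 (adjusted p = 0.00694; 0.105 in the fit of the 6 arrays alone). The nuclear receptor nr4a1 had 7.16, 6.23 and 6.26 in sertraline 25 and 5.44, 5.62 and 4.69 in fluoxetine 25, a difference of 1.3 ± 0.27 (adjusted p = 0.033), and its 3 control arrays (7.62, 7.49 and 7.86) lay above both drugs. The AP-1 component junbb had 8.68, 8.22 and 8.30 in sertraline 25 and 7.64, 7.63 and 7.04 in fluoxetine 25, a difference of 0.96 (adjusted p = 0.0444), and here sertraline lay above the control arrays (7.44, 7.42 and 7.57). The call count was 1 without any one of the 3 sertraline 25 arrays, and 14, 2 and 6 without fluoxetine 25 replicate 1, 2 and 3. The list means were 7.24, 6.93 and 6.98 in sertraline 25, 6.75, 6.43 and 6.17 in fluoxetine 25 and 6.81, 6.87 and 6.77 in control, with sertraline above and fluoxetine below every control array. Outside the list, the AP-1 repressor jdp2b had 7.81, 7.42 and 7.41 in sertraline 25 and 6.67, 6.04 and 5.41 in fluoxetine 25, a difference of 1.51 ± 0.24 (adjusted p = 0.0075; 0.165 in the fit of the 6 arrays alone).

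In the list of DNA replication and cell cycle genes, 7 of 87 measured rose (8.05%, beside 1.03% of all probe sets) and none fell, with a median of 0.04. They comprise the helicase subunits mcm2, mcm3, mcm4 and mcm5, the ribonucleotide reductase subunit rrm1, the maintenance methyltransferase dnmt1 and the histone chaperone rbbp4. Of the 87 genes 44 belong to the 40% of probe sets with the lowest signal, mcm3 among them. The signal of mcm2 was 5.96, 5.68 and 5.94 in sertraline 25 and 4.27, 4.69 and 5.20 in fluoxetine 25, a difference of 1.14 ± 0.22 (adjusted p = 0.0197). The signal of rbbp4 was 7.26, 7.04 and 6.97 in sertraline 25 and 6.25, 6.34 and 6.55 in fluoxetine 25, a difference of 0.71 ± 0.10 (adjusted p = 0.00345). The drugs were separate on every array for both genes. The number called higher was 1, 2 and 1 without sertraline 25 replicate 1, 2 and 3, and 4, 2 and 12 without fluoxetine 25 replicate 1, 2 and 3, and rbbp4 passed in each of these fits but not in that of the 6 arrays alone (adjusted p = 0.0964).

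Markers of digestive organs were the groups with the lowest medians, but the fluoxetine 25 arrays did not share one level. The 21 measured genes of the exocrine pancreas had a median of -1.83, and 0 passed in limma, although 19 were lower at an unadjusted p under 0.05. Their mean signal was 5.11, 4.80 and 5.53 in sertraline 25 and 7.59, 7.18 and 5.21 in fluoxetine 25, against 5.45, 4.73 and 4.23 in control. Fluoxetine 25 replicate 3 therefore lay within the sertraline range and the other 2 fluoxetine arrays far above it. The elastase ela2l shows the same order, with 7.72, 7.27 and 8.39 in sertraline 25 and 10.76, 10.51 and 8.03 in fluoxetine 25 (difference -1.97, adjusted p = 0.105). Without fluoxetine 25 replicate 3, 18 of the 21 genes passed as lower in sertraline. The 46 genes of hepatocytes, yolk and lipoproteins had a median of -0.90 with means of 5.93, 5.03 and 5.80 in sertraline 25 and 6.96, 6.98 and 5.46 in fluoxetine 25. Only hpxb, a heme-binding hemopexin, passed (difference -0.67, adjusted p = 0.0388, and 0.0538 to 0.159 without any 1 array other than fluoxetine 25 replicate 3), and 29 passed without fluoxetine 25 replicate 3. The 29 intestine genes had 0 calls (1 higher and 7 lower at an unadjusted limma p under 0.05) and means of 5.26, 4.98 and 5.42 in sertraline 25 and 5.87, 5.73 and 4.85 in fluoxetine 25. Replicate 3 again lay apart, and 5 genes passed as lower without it. The skin and ionocyte list of 54 genes had no call (3 higher and 6 lower at an unadjusted limma p under 0.05), and its mean of 6.38 in fluoxetine 25 replicate 3 was the only one outside 7.28 to 7.68 among the 9 arrays of sertraline 25, fluoxetine 25 and control. Its median difference of 0.22 turned to -0.20 without that array. Among the sertraline 25 and fluoxetine 25 arrays, fluoxetine 25 replicate 3 also had the highest 3′ minus 5′ differences of GAPDH (2.36) and acta1 (8.95). Its mean r with its group, 0.9861, was the lowest of them. Whether these bear on its organ and skin signals was not tested. The mean of the clock list separated the drugs on every array, replicate 3 included. The part of these organ and skin signals in other differences, those of the clock genes among them, was not tested.

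**Figure D3:**
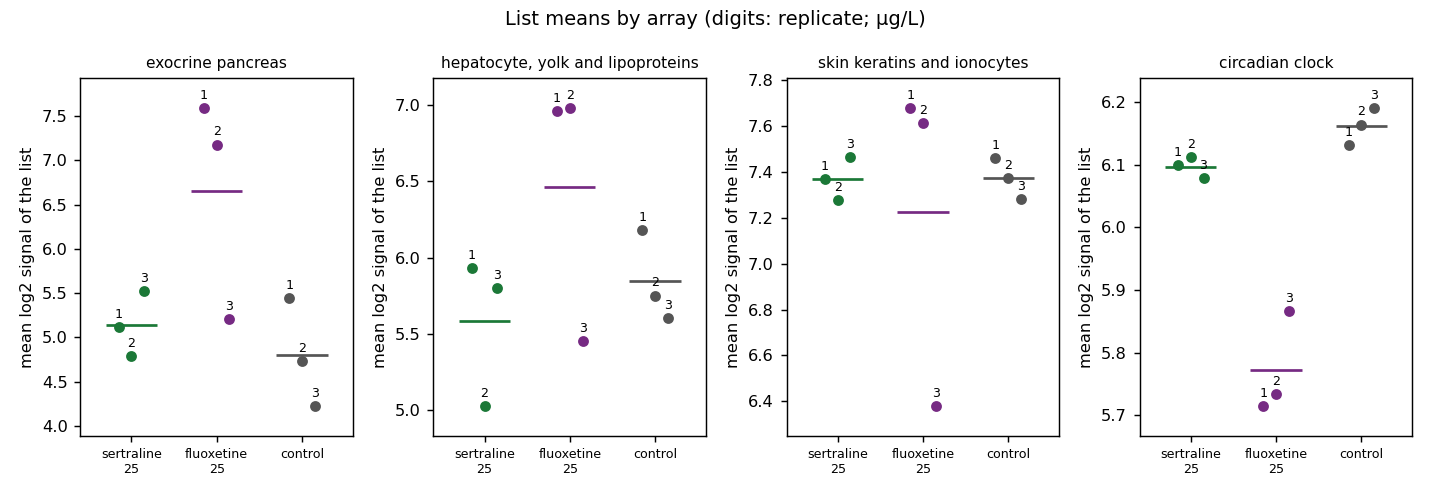
Mean log2 signal of 4 gene lists on each array of sertraline 25, fluoxetine 25 (µg/L) and control, with the replicate number beside each point and a line at the group mean. In the pancreas and hepatocyte lists fluoxetine 25 replicate 3 lies apart from replicates 1 and 2, and in the skin list it is the lowest of all; in the clock list all fluoxetine points lie below all sertraline points.

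The drug class acts on serotonin, and no measured gene listed for that system passed between the drugs. Of 14 measured genes for serotonin and other monoamines, 0 were called by limma, and at an unadjusted p under 0.05 1 was lower and 0 were higher. Their largest difference was 0.27 in size on the log2 scale, and the median was -0.11. The tryptophan hydroxylase tph1b, which starts serotonin synthesis, had 2.50, 2.59 and 2.57 in sertraline 25 and 2.69, 2.69 and 2.70 in fluoxetine 25 (95% interval of the difference -0.29 to 0.01). The dopamine hydroxylase dbh had 1.37, 1.41 and 1.43 in sertraline 25 and 1.54, 1.53 and 1.48 in fluoxetine 25 (interval -0.21 to -0.01). Of the 14 genes 10 belong to the 40% of probe sets with the lowest signal, whose own median was -0.12, so a change in these genes may not be visible on this array. On the stress axis and steroid synthesis list 0 of 11 genes were called, with 0 higher and 5 lower at an unadjusted p under 0.05. Of these 11 genes 8 belong to the same 40% of probe sets with the lowest signal.

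**Figure D4:**
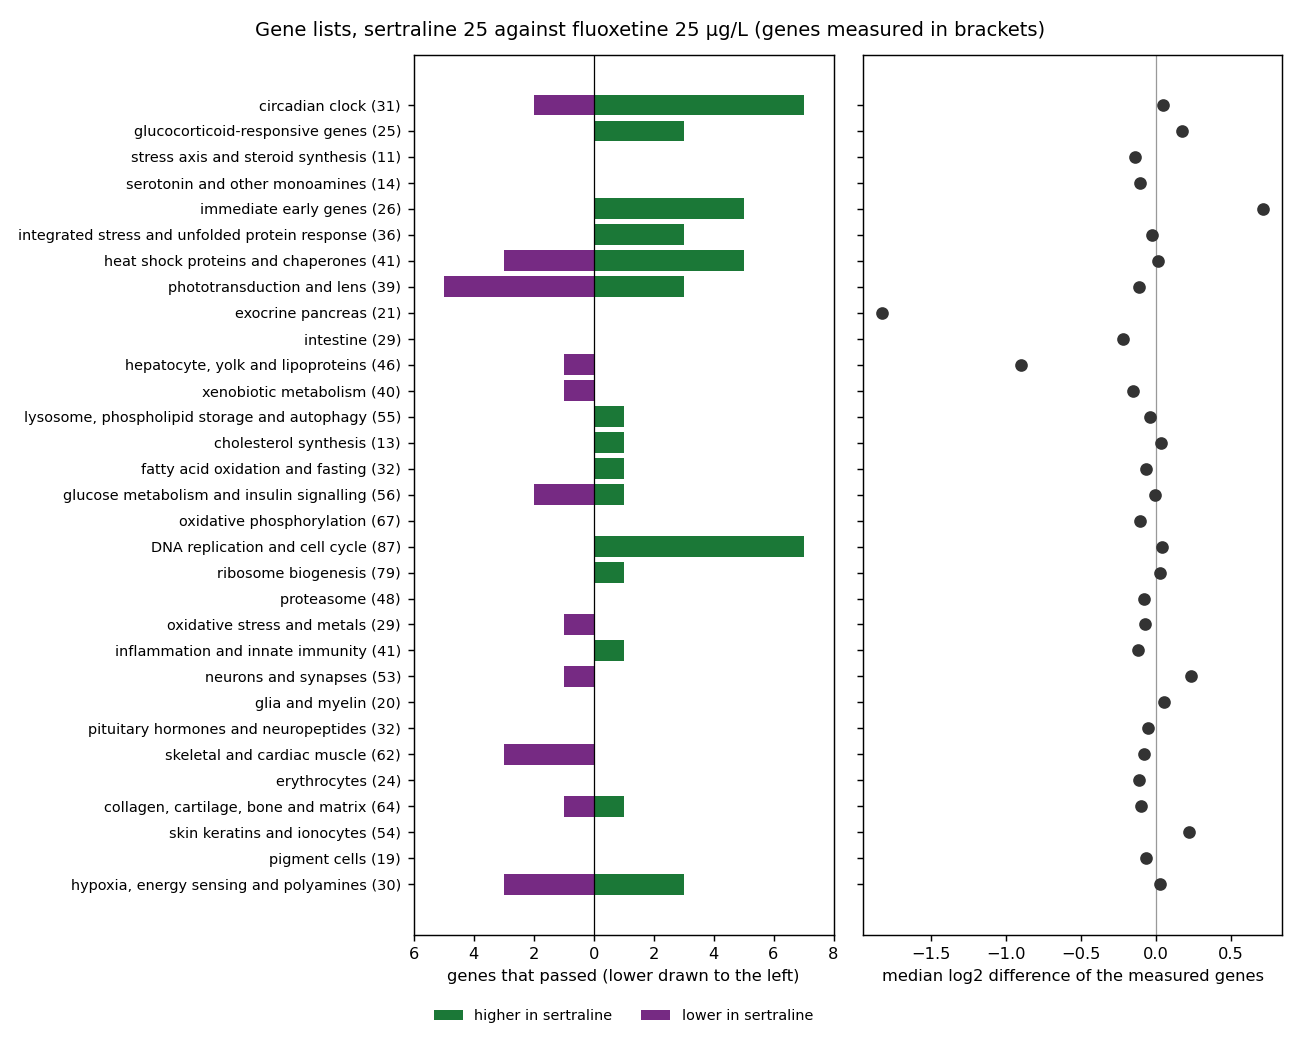
Counts of called genes (left, higher in sertraline to the right of 0 and lower to the left) and median log2 difference of sertraline 25 minus fluoxetine 25 µg/L (right) for 31 gene lists, with the number of measured genes in brackets. The clock list and the DNA replication list have 7 higher genes each, and the pancreas list has the lowest median, -1.83, with no call.

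In the other lists between 0 and 2 genes were called in either direction, with 2 exceptions. The list of hypoxia, energy sensing and polyamines had 3 higher and 3 lower genes among 30 measured. The stress response list had 3 higher and 0 lower among 36 measured. Over all probe sets 1.03% were called higher and 1.06% lower. The called stress response genes were mthfd2, slc3a2b and xbp1, of which only mthfd2 passed in every fit without 1 array. The calls of slc3a2b and xbp1 ended without any 1 of the sertraline 25 arrays or fluoxetine 25 replicate 2, with an adjusted p of up to 0.196. Cholesterol synthesis had fdft1 (squalene synthase, 0.47, adjusted p = 0.0123) as its single call among 13, and lysosome and phospholipid storage had laptm4a (0.36, adjusted p = 0.0388) among 55. The call of fdft1 ended without sertraline 25 replicate 1 or 2 (adjusted p = 0.0509 and 0.056), and that of laptm4a without sertraline 25 replicate 1 or 2 or fluoxetine 25 replicate 2 (0.161, 0.103 and 0.119). Markers of erythrocytes (24 genes, 1 higher and 7 lower at an unadjusted limma p under 0.05), glia (20, 4 and 2), pigment cells (19, 1 and 5) and pituitary hormones and neuropeptides (32, 1 and 4) had 0 calls. In the order of these lists 17, 3, 6 and 19 genes belong to the 40% of probe sets with the lowest signal.

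The drugs were also compared at 250 µg/L, with 3 arrays each that share none with the 25 µg/L groups. There sertraline and fluoxetine differed in 213 probe sets (1.37%), 119 higher (0.768%) and 94 lower (0.606%). The calls shared by both concentrations numbered 81, all in the same direction, which is 24.9% of the calls at 25 µg/L and 38.0% of those at 250 µg/L. The difference had the same sign at both concentrations in 89.5% of the 325 probe sets, against 64.2% of all probe sets. Its median among the higher probe sets was 0.71 at 25 µg/L and 0.35 at 250 µg/L, and among the lower ones -0.50 and -0.22. Since the probe sets were chosen at 25 µg/L, the smaller medians at 250 µg/L are a description with no test. Of the 30 named genes with the largest changes, 21 passed at 250 µg/L in the same direction.

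Of the 9 clock genes called at 25 µg/L, 7 also passed at 250 µg/L in the same direction. At 250 µg/L per2 differed by 1.80 (adjusted p = 1.12e-05), bhlhe41 by 2.02 (adjusted p = 0.000168) and rorcb by -1.63 (adjusted p = 2.81e-05). The differences of ciarta (1.26, adjusted p = 0.000232), cry2 (1.42, adjusted p = 3.43e-05), cry1b (0.93, adjusted p = 0.00316) and nfil3-5 (-0.77, adjusted p = 0.00553) passed as well. Those of nfil3-6 (0.21, adjusted p = 0.581) and nr1d2b (0.34, adjusted p = 0.166) did not pass. The cryptochrome cry1a passed at neither concentration, with 0.98 at 25 µg/L (adjusted p = 0.0922) and -0.34 at 250 µg/L (adjusted p = 0.774). The gene ndrg1b differed by -1.55 (adjusted p = 1.12e-05) and serpinh1b by -1.57 (adjusted p = 0.0206). By contrast fkbp5 had 9.57, 8.98 and 8.58 in sertraline 250 and 9.17, 9.09 and 9.49 in fluoxetine 250, a difference of -0.20 (adjusted p = 0.863). The arrays of both drugs overlapped there, unlike at 25 µg/L. The change in the drug difference between concentrations was 3.0 for fkbp5 (adjusted p = 0.0375), and it was the only probe set of 15502 (0.00645%) that passed this test, with 1434 at an unadjusted p under 0.05. The call ended without sertraline 25 replicate 1 or 3 (adjusted p = 0.16 and 0.191) and without fluoxetine 25 replicate 2 (0.111). It also ended after quantile normalization (0.0773), in the fit of the 12 drug arrays (0.116) and with the GAPDH difference as a covariate (0.231). For dhrs13a.2 the signal was 8.86, 8.51 and 8.66 in sertraline 25 and 7.44, 6.63 and 4.98 in fluoxetine 25, a difference of 2.33 ± 0.42 (adjusted p = 0.0148), against -0.10 (adjusted p = 0.965) at 250 µg/L. Its call at 25 µg/L ended without sertraline 25 replicate 1 or 3 (adjusted p = 0.075 and 0.056), and the change between concentrations did not pass. The jdp2b difference of 0.15 at 250 µg/L did not pass (adjusted p = 0.894), nor did that of nfkbiab (-0.04, adjusted p = 0.941).

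**Figure D5:**
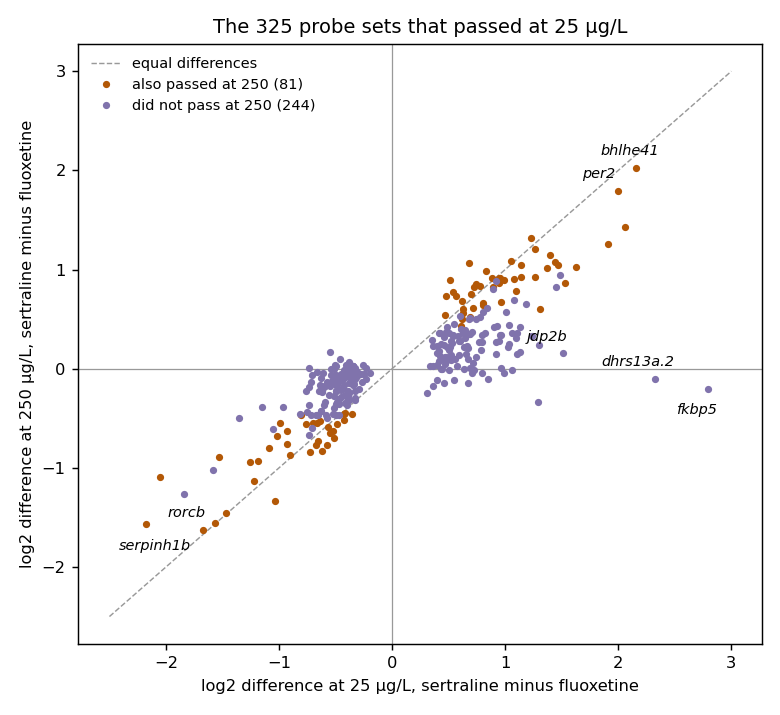
Log2 difference of sertraline minus fluoxetine at 25 µg/L (horizontal) and at 250 µg/L (vertical) for the 325 probe sets that passed at 25 µg/L, with a dashed line of equal differences. Orange points (81) also passed at 250 µg/L. Most points lie on the same side of 0 at both concentrations, while fkbp5 and dhrs13a.2 lie far to the right at a difference near 0 on the vertical axis.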

How the data were processed

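The authors deposited 1 log2 value per probe set for each of 15 one-colour Affymetrix arrays, for which 5 µg of total RNA was labelled, per the labels' protocols. GCRMA and Partek are named in the submitters' processing notes; their roles and versions are not given in the sources used here. The values were used as deposited. Of 15617 probe sets 115 control probe sets were left out. The platform annotation of 2016 gave 1 symbol to 10795 probe sets, several to 135 and none to 4572; 10711 matched RefSeq gene names (assembly GRCz12tu) and 1 symbol was updated. No coordinate or sequence was used.

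Group means were fitted to all 15 arrays in limma 3.58.1 (R 4.3.3) with moderated variances, and p-values were adjusted over all 15502 probe sets of a comparison by Benjamini-Hochberg at 0.05. Intervals are at 95% and not adjusted. The number of arrays limits precision: the median 95% interval reached 0.24 to either side. The model was tested on simulated data, and no conclusion on the unequal spread of the groups is drawn from that test. Tables and figures used Python 3.11.15 and matplotlib 3.10.9.

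Named were the 15 largest rises and 15 largest falls with 1 symbol and no overlap, up to 4 called members of each of 31 gene lists (the 2 smallest p-values where none passed), fkbp5 and up to 5 genes per direction of the interaction. Other genes were named after their values were seen. A list gene was read from its brightest probe set, and 1238 of 2023 listed genes were measured. Members and lists were chosen with earlier results of these data known. Alternatives tried were quantile normalization, centring on medians, no probe sets of the lowest 40%, array weights, a trended and robust prior, fits of 6 or 12 arrays, a replicate block, fits without each array in turn and, chosen after seeing the data, the GAPDH difference as a covariate.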

Additional observations from a re-analysis of the deposited data

Results flagged for a closer look

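The drug difference of fkbp5 differed between concentrations by the test of the interaction. It was 2.80 at 25 µg/L and -0.20 at 250 µg/L (sertraline minus fluoxetine, log2), a change of 3.0 with a limma adjusted p of 0.0375, and the 3 sertraline arrays lay above the 3 fluoxetine arrays only at 25 µg/L. The call ended without sertraline 25 replicate 1 or 3 (adjusted p = 0.16 and 0.191) or fluoxetine 25 replicate 2 (0.111). It also ended after quantile normalization (0.0773), in the 12 drug arrays (0.116) and with the GAPDH covariate (0.231).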

How the results depend on the processing

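Of the 89 named probe sets that passed between the drugs, 0 changed sign under the alternatives, and between 33 (the 6 arrays alone) and 87 (trended and robust prior, or without fluoxetine 25 replicate 3) kept their call. The count of 325 became 509 with a trended and robust prior, 214 with array weights and 54 in the fit of the 6 arrays alone, where 35 were higher and 19 lower. The lower probe sets, 165, became 102 after median centring, 312 with the trended prior, 103 with array weights and 109 with a replicate block. Leaving out 1 array gave 104 to 1007 calls, 65 to 502 higher and 39 to 605 lower. The replicate block gave 238 calls. Arrays of 1 number correlated in their deviations at a mean r of 0.00, with 10 of 30 such pairs over 0.1. The 3 sertraline and fluoxetine 25 pairs had 0.13, -0.18 and -0.32. The beakers were not treated as pairs, and whether arrays of 1 number shared a batch was not tested. With GAPDH as a covariate, chosen after seeing the data, 394 passed.

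The interaction count of 1 became 0 after quantile normalization, in the 12 drug arrays and with the GAPDH covariate, 2 with array weights, and 0 to 16 when 1 array was left out. For fkbp5 the interaction was 3.01, 3.0 and 3.0 in those first 3 settings, no longer past the threshold (limma adjusted p = 0.0773, 0.116 and 0.231), and 2.79 to 3.22 without 1 array. Where a setting tests fewer arrays its spread rests on fewer degrees of freedom and, where whole groups are left out, on fewer groups. The cause of these changes was not tested.

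Only differences near 0 that had not passed changed sign, all at further probe sets of genes named for another one. These were cpa4 (0.00) and mcm3 (0.00) and desi1b (0.03) after quantile normalization, fosl2 (-0.02) with the GAPDH covariate, and nfil3-6 after median centring (0.02), quantile normalization (0.10) and array weights (0.00). Without 1 array the range was -0.13 to 0.10 for atp2b1a, -0.01 to 0.05 for cry-dash, -0.01 to 0.02 for fosl2 and -0.05 to 0.03 for nfil3-6. Signal near the low end of the range limits what can be seen of the monoamine genes.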

Other observations

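Beyond the gene lists, some of the most uniform differences lay in single genes. The gene with the smallest p was LOC567909, which had 9.77, 9.75 and 9.66 in sertraline 25 and 8.45, 8.5 and 8.45 in fluoxetine 25, a difference of 1.26 ± 0.06 (limma adjusted p = 2.76e-07). The arrays of the drugs were separate by more than 1 log2 unit. The WD-repeat gene wdr76 had 4.44, 4.30 and 4.35 in sertraline 25 and 3.29, 2.97 and 3.14 in fluoxetine 25, a difference of 1.23 ± 0.13 (adjusted p = 0.000312), and it was higher by 1.32 at 250 µg/L (adjusted p = 0.000334). The calcium-binding protein gene cabp5b had 8.03, 8.06 and 8.21 in sertraline 25 and 6.92, 7.11 and 7.31 in fluoxetine 25, a difference of 0.99 (adjusted p = 0.00329). The DNA damage recognition gene xpc was higher by 0.95 (adjusted p = 0.00345) and a second probe set of it by 0.70 without passing (adjusted p = 0.11). The phosphate transporter slc20a1b was higher by 1.1 (adjusted p = 0.000164) and the membrane protein gene itm2cb by 1.53 (adjusted p = 3.46e-05). The calls named here passed in each fit without 1 of the 6 arrays.

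Of the 10 probe sets called between sertraline 25 and control, 9 were lower and 1, the immediate early gene egr4, was higher. It had 7.88, 7.50 and 7.56 in sertraline 25 and 7.0, 6.34 and 6.19 in fluoxetine 25, against 5.52, 5.94 and 5.46 in control, and the drugs did not differ past the threshold (1.14, adjusted p = 0.0681). Of these 10 probe sets 2, for fkbp5 and slc3a2b, also passed between the drugs. The phosphoinositide kinase subunit pik3r3a had 5.26, 4.90 and 5.13 in sertraline 25 and 4.73, 4.84 and 4.69 in fluoxetine 25, against 6.73, 6.63 and 6.32 in control. Both drugs lay below every control array, and the difference between them was 0.34 (adjusted p = 0.138, 95% interval 0.05 to 0.64). For klf9 that interval was 0.13 to 0.78.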
